A study of Mus musculus with 16 samples.

Results

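The 9 collagen genes described here lie outside the major fibrillar and basement membrane families and were followed in mouse knee joints with and without injury. They are Col6a1, Col6a2, Col6a3, Col7a1, Col8a1, Col12a1, Col14a1, Col15a1 and Col16a1. The genes were taken by symbol, and all 9 were found among the 13733 genes listed and among the 13173 genes with at least 1 CPM (reads per gene scaled to a shared sequencing depth) in at least 4 libraries. The study injured the right knee by compressing the tibia until the anterior cruciate ligament ruptured, and measured RNA from joint cells of uninjured mice (D0) and of mice 7 days after injury (D7). WT mice were C57BL/6, and Trem2-/- mice carried a germline knockout of Trem2, a receptor of macrophages and other myeloid cells. The 4 groups, WT and Trem2-/- at D0 and at D7, held 4 mice each, 1 library per mouse. The paper states that injured mice received buprenorphine for pain relief and saline directly after the injury, so D7 against D0 covers both. The paper describes male mice injured at 10 weeks and cells released enzymatically from the joint, without saying whether these cells were sorted by the leukocyte marker CD45. The labels also give an age of 16 weeks, a protocol for homogenized joints of control and diabetic mice, and a library kit other than the paper's. These could not be reconciled with the paper, so groups rest on genotype and day alone. The genes were named with earlier results of these mice known. Col7a1 among them had been selected on its measured difference between Trem2-/- and WT mice at D7, and which values, if any, chose the others is not recorded.

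Collagens are proteins of the extracellular matrix whose 3 chains wind into a helix. Collagen VI, built from the products of Col6a1, Col6a2 and Col6a3, forms beaded microfibrils around fibroblasts, muscle fibres, tendon cells and chondrocytes. Collagens XII, XIV and XVI are fibril-associated collagens with interrupted helices, which decorate the surface of collagen I and II fibrils, and collagen XII is abundant in tendon and ligament. Collagen VII forms the anchoring fibrils that tie the epidermal basement membrane to the dermis. Collagens VIII and XV do not belong to the fibril-associated group by structure. The first is a short-chain network collagen of vessels and other tissues, and the second is a proteoglycan of basement membrane zones whose end fragment is related to endostatin.

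The stretches upstream of the 3 collagen VI genes are shown because these genes moved nearly in step in every library, and that of Col7a1 because its level was the lowest of the 9. Each is the 250 bases before a RefSeq gene start (GRCm38.p6), written along the gene's own strand, with matches to 4 short motifs in capitals. RefSeq entries were matched for 7 of the 9 genes. Col12a1 and Col14a1 had no entry in the table used.
Col6a1, chr10:76726045-76726294, minus strand: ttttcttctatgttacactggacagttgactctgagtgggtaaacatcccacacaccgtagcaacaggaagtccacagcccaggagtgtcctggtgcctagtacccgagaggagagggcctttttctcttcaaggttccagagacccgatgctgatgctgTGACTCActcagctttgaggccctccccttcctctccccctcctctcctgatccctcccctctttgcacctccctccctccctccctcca
Col6a2, chr10:76623631-76623880, minus strand: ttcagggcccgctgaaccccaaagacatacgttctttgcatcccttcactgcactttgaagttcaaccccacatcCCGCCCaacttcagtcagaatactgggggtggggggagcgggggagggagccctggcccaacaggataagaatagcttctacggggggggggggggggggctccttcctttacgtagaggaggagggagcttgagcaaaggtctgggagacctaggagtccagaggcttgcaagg
Col6a3, chr1:90843972-90844221, minus strand: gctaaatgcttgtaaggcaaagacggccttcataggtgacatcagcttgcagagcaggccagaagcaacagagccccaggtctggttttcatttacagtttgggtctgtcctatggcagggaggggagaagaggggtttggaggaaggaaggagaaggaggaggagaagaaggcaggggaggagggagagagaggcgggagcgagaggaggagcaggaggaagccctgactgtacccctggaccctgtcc
Col7a1, chr9:108953336-108953585, plus strand: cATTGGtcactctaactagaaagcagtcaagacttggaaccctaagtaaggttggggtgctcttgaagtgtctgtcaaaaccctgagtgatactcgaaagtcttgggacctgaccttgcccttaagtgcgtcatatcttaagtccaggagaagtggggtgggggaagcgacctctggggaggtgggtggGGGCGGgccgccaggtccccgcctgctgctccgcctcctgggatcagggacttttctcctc
The motifs, searched on both strands, were the GC box (GGGCGG), the CCAAT box (CCAAT), the TATA box (TATAAA) and the AP-1 motif (TGANTCA), and no match in these 4 stretches overlapped another. Col6a1 held an AP-1 motif starting at position -90 from the RefSeq start, a motif present in 6.73% of the 32536 promoter windows of the same length. In the GENCODE annotation used below, Col6a1 starts farther upstream, at chr10:76726168, so this motif lies inside that gene. Col6a2 held a GC box at -175. The RefSeq table also gives Col6a2 a second start, whose window (chr10:76623405-76623654, GC content 64.4%, not shown) held 3 GC boxes, at -67, -15 and -11. These 3 lie inside the GENCODE gene, which starts at chr10:76623630. Col7a1 held a GC box at -61 and a CCAAT box at -249. The GC box was present in 33.0% of all windows, the CCAAT box in 33.8% and the TATA box in 12.3%. Col6a3 held none of the 4 motifs, and no motif was shared by all 3 collagen VI genes. GC content was 56.0% for Col6a1, 59.2% for Col6a2, 57.2% for Col6a3 and 56.4% for Col7a1, against a median of 52.4% over all windows. A motif match is a description of the letters and not evidence that a factor binds.

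Each library held 11567073 to 32867818 reads, and 3 reads corresponded to 0.101 to 0.2502 CPM. Trem2 was 10.7 to 22.5 CPM in WT and 3.42 to 4.84 CPM in Trem2-/- mice at D7, without overlap, and 2.51 to 5.61 against 0.948 to 2.68 CPM at D0, with overlap. The D0 libraries differed widely for the 9 collagen genes. WT D0 replicate 4 was the highest of its group for 9 of the 9 genes and WT D0 replicate 2 the lowest for 8 of them. Trem2-/- D0 replicate 3 was the lowest of its group for 8 genes and WT D7 replicate 3 for 7. The median SD of the 9 genes on the log2 scale was 1.26 at WT D0, 0.48 at Trem2-/- D0, 0.38 at WT D7 and 0.16 at Trem2-/- D7, against 0.27, 0.24, 0.21 and 0.13 over all genes tested. The main results that rest on WT D0 are therefore also given without replicate 2 or 4.

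The first comparison asked which of these genes differed between uninjured joints and joints 7 days after injury, in each genotype. All 9 collagen genes were higher at D7 than at D0 in both genotypes, with the 3 collagen VI genes and Col12a1 rising most. The thresholds of the study's methods were used for a call, which are an unadjusted p under 0.05 in limma and a log2 fold change beyond 0.32. In WT mice 9 of 9 were called higher, against 19.3% of all genes tested, and 8 of 9 passed Benjamini-Hochberg adjustment, against 15.9%. In Trem2-/- mice 9 of 9 were called higher, against 26.5%, and 9 of 9 passed adjustment, against 26.0%. For the 9 genes the median log2 fold change reached 2.12 in WT mice and 3.14 in Trem2-/- mice, against -0.045 and -0.042 over all genes tested. The groups did not overlap for 6 of 9 genes in WT mice, against 12.9% of all genes, and for 9 of 9 in Trem2-/- mice, against 26.1%. Without WT D0 replicate 4, or without WT D0 replicate 2, 9 of 9 genes were still called in WT mice. Their sizes moved, with log2 fold changes in WT mice of 2.44 for Col6a1, 2.52 for Col6a2, 2.72 for Col6a3 and 1.91 for Col12a1 without replicate 2, and of 3.53, 3.59, 3.91 and 3.14 without replicate 4. For the other 5 genes they lay between 0.85 for Col8a1 and 1.73 for Col14a1 without replicate 2, and between 1.18 for Col7a1 and 2.55 for Col14a1 without replicate 4. The libraries are of mixed cells, and more cells of a type cannot be told apart from more RNA per cell.

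**Figure D1:**
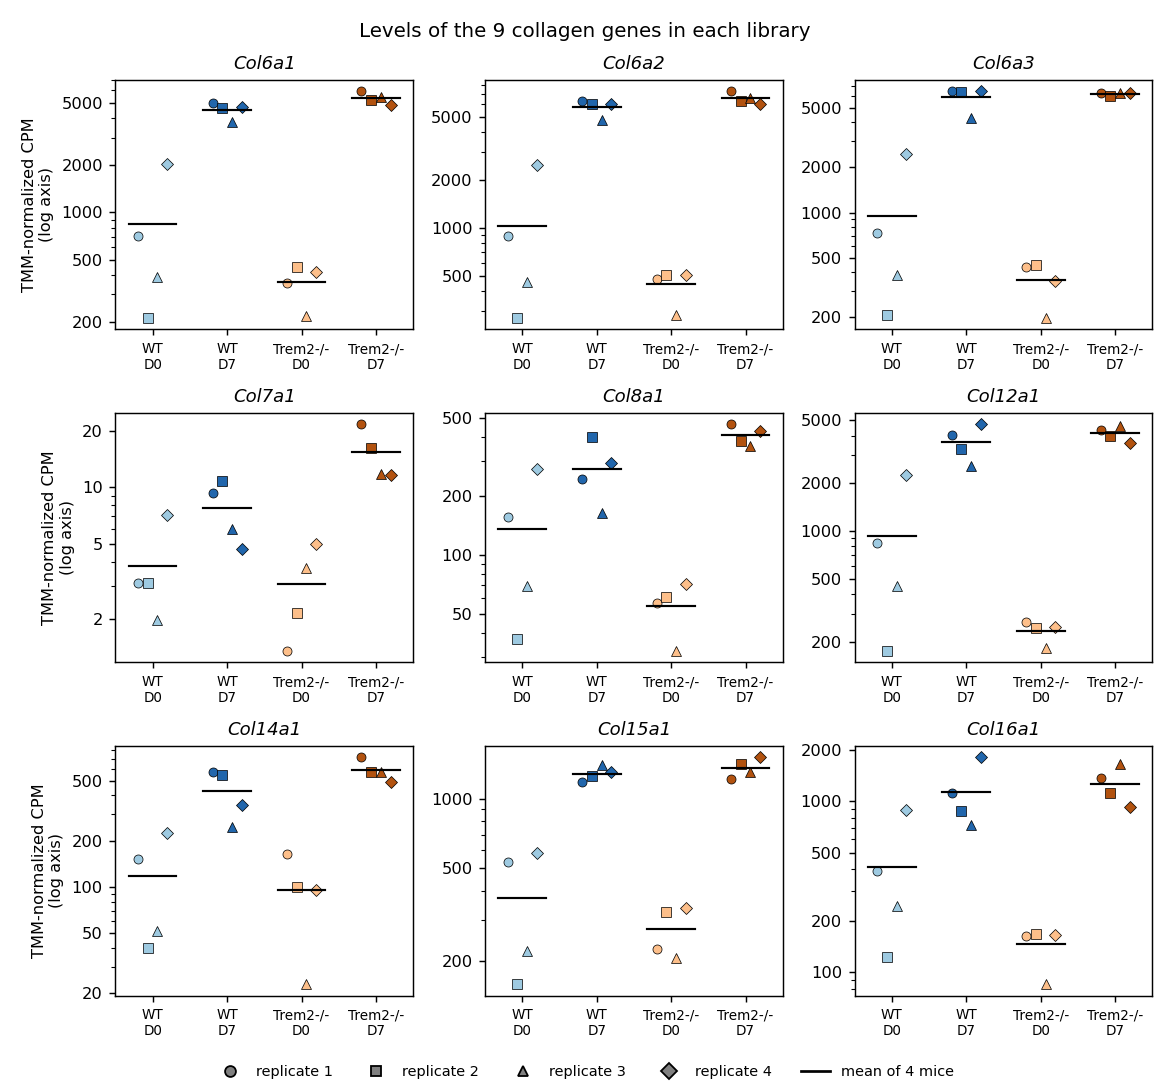
Level of each of the 9 collagen genes (TMM-normalized CPM, log axis, 1 panel per gene) in the 16 libraries, by group, with a marker shape per replicate and a line at the mean of 4 mice. All 4 D7 libraries lie above all 4 D0 libraries of the same genotype in every panel for Trem2-/- mice, and in all but those of Col7a1, Col8a1 and Col16a1 for WT mice.

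Per kilobase of transcript, collagen VI was the most abundant of these collagens at D7. Col6a1 (chr10:76708792-76726168, minus strand; annotation GENCODE M21 of GRCm38, as for the positions that follow) encodes the alpha 1 chain. It was 711, 212, 386 and 2042 CPM in WT D0 mice and 4965, 4608, 3763 and 4725 CPM in WT D7 mice. In Trem2-/- mice it was 357, 447, 219.8 and 417 CPM at D0 and 5936, 5179, 5452 and 4838 CPM at D7. Every D7 library lay above every D0 library, and the D7 libraries were close to each other while WT D0 replicate 4 stood 9.63 times above replicate 2. Col6a1 rose by 2.93 on the log2 scale in WT mice (standard error 0.48, adjusted p = 0.00112 from limma) and by 3.94 in Trem2-/- mice (standard error 0.48, adjusted p = 2.45e-05 from limma).

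Col6a2 (chr10:76595762-76623630, minus strand) encodes the alpha 2 chain and lies next to Col6a1 on chromosome 10. Its level was 889, 269.9, 458 and 2490.2 CPM in WT D0 mice and 6335, 6069.8, 4791 and 6024.5 CPM in WT D7 mice. The Trem2-/- mice had 473, 503, 282 and 508 CPM at D0 and 7278, 6314, 6621 and 6002 CPM at D7. The order of the WT D0 mice was that of Col6a1, and neither genotype had overlapping groups. The rise on the log2 scale was 2.99 in WT (adjusted p = 0.000951, limma) and 3.92 in Trem2-/- mice (adjusted p = 2.33e-05, limma), each with a standard error of 0.47.

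Col6a3 (chr1:90765923-90843971, minus strand) encodes the alpha 3 chain, the largest of the collagen VI chains. It was 726, 205, 383 and 2466 CPM in WT D0 mice and 6432, 6372, 4303 and 6468 CPM in WT D7 mice. For Trem2-/- mice the levels were 432, 444, 198 and 351 CPM at D0 and 6237, 6031, 6282 and 6240 CPM at D7. WT D7 replicate 3 lay below the other WT D7 mice, and the 4 Trem2-/- D7 mice differed by no more than 1.04-fold. Its log2 fold changes of 3.24 in WT (standard error 0.53, adjusted p = 0.00112, limma) and 4.18 in Trem2-/- mice (standard error 0.53, adjusted p = 3.15e-05, limma) were the largest of the 9 genes in both genotypes. Of all genes tested, 99.9% in WT and 99.8% in Trem2-/- mice changed by less than Col6a3 in absolute size.

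Ratios within a library do not depend on how libraries were scaled, so the proportion of the collagen VI chains was followed across the 16 mice. The ratio of Col6a2 to Col6a1 stayed between 1.13 and 1.32, a 1.18-fold range, while the level of Col6a1 itself ranged 28.0-fold. It was 1.251, 1.27, 1.19 and 1.22 in WT D0 mice and 1.28, 1.32, 1.27 and 1.28 in WT D7 mice. Ratios in Trem2-/- mice were 1.32, 1.13, 1.28 and 1.22 at D0 and 1.23, 1.22, 1.21 and 1.24 at D7. The WT D7 values lay just above those of WT D0 and of Trem2-/- D7, without overlap in either case. On the log2 scale the ratio differed by 0.061 between D7 and D0 in WT mice and by -0.069 between Trem2-/- and WT mice at D7 (both with p = 0.0286 in a two-sided exact permutation test, the lowest value reachable with groups of 4, and with adjusted p = 0.129 over 9 ratio comparisons). Neither difference passed adjustment.

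The ratio of Col6a3 to Col6a1 ranged more widely, from 0.842 to 1.38. Its median was 1.01 at WT D0, 1.33 at WT D7, 0.946 at Trem2-/- D0 and 1.16 at Trem2-/- D7. The groups overlapped in all 3 comparisons, with log2 differences of 0.31 between D7 and D0 in WT mice (exact permutation p = 0.0571), 0.25 in Trem2-/- mice (exact permutation p = 0.114) and -0.16 between Trem2-/- and WT mice at D7 (exact permutation p = 0.171). Adjusted over the 9 comparisons these became 0.171, 0.206 and 0.257.

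**Figure D2:**
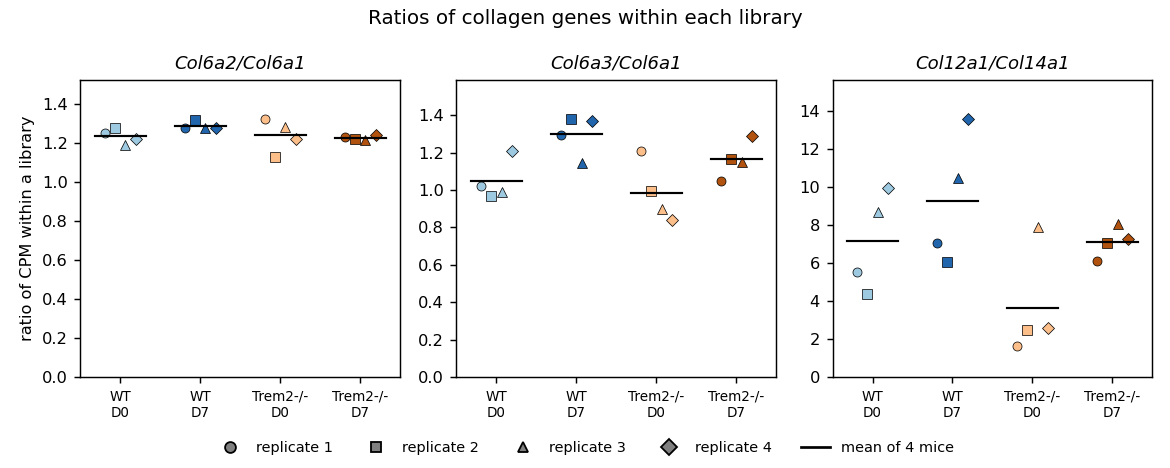
Ratio of CPM between pairs of collagen genes within each of the 16 libraries (linear axes from 0), by group, with a marker shape per replicate and a line at the mean of 4 mice. The Col6a2/Col6a1 ratio is nearly flat between 1.13 and 1.32, whereas Col12a1/Col14a1 spreads from 1.61 to 13.6.

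Among the fibril-associated collagens, Col12a1 (chr9:79598991-79718831, minus strand) encodes collagen XII, which binds fibrils in dense connective tissue under load. It was 843, 174 and 446 CPM in WT D0 replicates 1 to 3 and 2256 CPM in replicate 4, and 4019, 3304, 2573 and 4731 CPM in WT D7 mice. Levels in Trem2-/- mice were 264, 244, 181 and 246 CPM at D0 and 4352, 4003, 4593 and 3573 CPM at D7. The groups did not overlap in either genotype, though WT D0 replicate 4 came close to the lowest WT D7 mouse. Its rise on the log2 scale was 2.52 in WT mice (standard error 0.52, adjusted p = 0.00372, limma) and 4.14 in Trem2-/- mice (standard error 0.52, adjusted p = 2.96e-05, limma).

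Col14a1 (chr15:55307750-55520803, plus strand) encodes collagen XIV, a close relative of collagen XII that limits fibril growth. Its level was 152, 40.0, 51.5 and 227 CPM in WT D0 mice and 571, 548, 246 and 348 CPM in WT D7 mice. Trem2-/- mice held 164, 99.7, 23.0 and 96.2 CPM at D0 and 714, 567, 571 and 491 CPM at D7. Groups were separated in both genotypes, narrowly so in WT mice between WT D0 replicate 4 and WT D7 replicate 3. It rose by 2.12 on the log2 scale in WT (standard error 0.57, adjusted p = 0.0137, limma) and by 2.88 in Trem2-/- mice (standard error 0.57, adjusted p = 0.000668, limma).

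The ratio of Col12a1 to Col14a1 was the most variable of the 3 ratios. It was 5.53, 4.35, 8.68 and 9.95 at WT D0 and 7.04, 6.03, 10.4 and 13.6 at WT D7. In Trem2-/- mice it was 1.61, 2.45, 7.88 and 2.56 at D0 and 6.09, 7.06, 8.04 and 7.28 at D7. Trem2-/- D0 replicates 1, 2 and 4 had the lowest ratios of the 16 mice, and replicate 3, with little Col14a1, was as high as the D7 mice. None of the 3 differences passed the exact two-sided permutation test, with p = 0.371 for D7 against D0 in WT, 0.114 in Trem2-/- mice and 0.400 between genotypes at D7.

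Col16a1 (chr4:130047840-130099283, plus strand) encodes collagen XVI, which associates with thin fibrils in cartilage and with microfibrils in skin. It was 391, 123, 244 and 889 CPM in WT D0 mice and 1114, 878, 729.6 and 1813 CPM in WT D7 mice. The corresponding Trem2-/- values were 163, 168, 84.9 and 165 CPM at D0 and 1361, 1126, 1659 and 929 CPM at D7. WT groups overlapped only through WT D0 replicate 4, which lay above 2 of the WT D7 mice, and Trem2-/- groups were far apart. Col16a1 rose by 1.74 on the log2 scale in WT (standard error 0.46, adjusted p = 0.0135, limma) and by 3.14 in Trem2-/- mice (standard error 0.46, adjusted p = 7.76e-05, limma).

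Col15a1 (chr4:47208161-47313167, plus strand) encodes collagen XV of the basement membrane zone around vessels and muscle. Its exons share 14 bases with Gm12426 on the opposite strand. It was 532, 158, 221 and 586 CPM in WT D0 mice and 1183, 1250.5, 1394 and 1308 CPM in WT D7 mice. The Trem2-/- levels were 225, 325, 205 and 337 CPM at D0 and 1223, 1415, 1301 and 1511 CPM at D7. Both genotypes reached nearly the same level at D7 with little spread between mice. Col15a1 rose by 1.98 on the log2 scale in WT (standard error 0.33, adjusted p = 0.00123, limma) and by 2.34 in Trem2-/- mice (standard error 0.33, adjusted p = 5.60e-05, limma).

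Col8a1 (chr16:57624258-57754737, minus strand) encodes the alpha 1 chain of collagen VIII. It was 156, 37.3, 69.6 and 275 CPM in WT D0 mice and 242, 399, 164 and 294 CPM in WT D7 mice. Among Trem2-/- mice the values were 56.5, 60.9, 32.2 and 70.4 CPM at D0 and 463, 382, 356 and 427 CPM at D7. WT D0 replicate 4 lay above 2 of the 4 WT D7 mice, while the Trem2-/- groups were far apart. The log2 fold change was 1.33 in WT (standard error 0.46, adjusted p = 0.0412, limma) and 2.91 in Trem2-/- mice (standard error 0.46, adjusted p = 0.00013, limma).

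Col7a1 (chr9:108953586-108984875, plus strand) encodes the single chain of collagen VII, and 36 bases of its exons also belong to Mir711 on the same strand. It was the lowest of the 9, with 20 to 645 reads per library. Its level was 3.11, 3.11, 1.97 and 7.08 CPM in WT D0 mice and 9.33, 10.8, 6.03 and 4.69 CPM in WT D7 mice. In Trem2-/- mice it was 1.34, 2.15, 3.70 and 5.02 CPM at D0 and 21.7, 16.3, 11.8 and 11.6 CPM at D7. WT groups overlapped, because WT D0 replicate 4 lay above WT D7 replicates 3 and 4, and the Trem2-/- groups did not. The log2 fold change was 0.90 in WT mice (standard error 0.34, adjusted p = 0.0602, limma) and 2.06 in Trem2-/- mice (standard error 0.34, adjusted p = 0.000197, limma). In WT mice the gene was called but did not pass adjustment, and the call was lost without WT D0 replicate 3 (0.70), WT D7 replicate 1 (0.80) or WT D7 replicate 2 (0.73). The D7 libraries of both genotypes are those from which Col7a1 had been selected, so these tests are not independent of its choice.

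**Figure D3:**
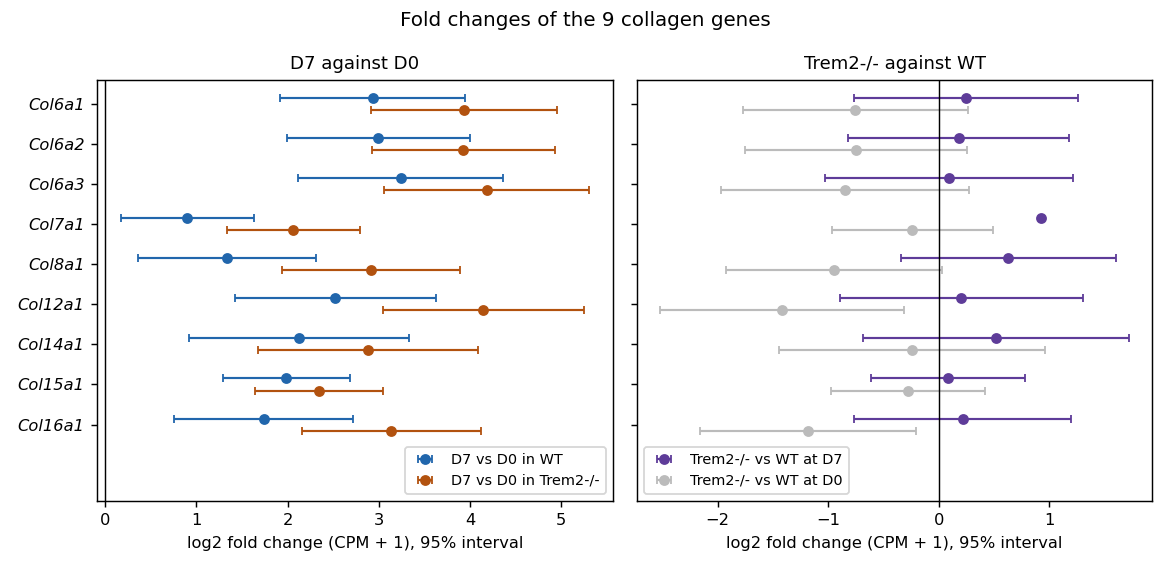
Log2 fold change of each of the 9 collagen genes on the log2(CPM + 1) scale with its 95% interval from limma, for D7 against D0 in each genotype (left) and for Trem2-/- against WT at D7 and at D0 (right). Each interval rests on a spread shared by all 4 groups, D0 libraries included. Col7a1 at D7 on the right has no interval because the gene was selected on that difference. All intervals for D7 against D0 lie above 0, and of those drawn for Trem2-/- against WT only those of Col12a1 and Col16a1 at D0 leave out 0.

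Levels of different genes were compared per kilobase of each gene's longest principal transcript. At WT D7 the mean level per kilobase was 1470.1 CPM for Col6a2, 1101 for Col6a1, 655 for Col6a3, 318 for Col12a1, 248 for Col15a1, 218 for Col16a1, 75.4 for Col14a1, 53.8 for Col8a1 and 0.834 for Col7a1. Neighbours in this order overlapped between Col12a1 and Col15a1, Col15a1 and Col16a1, and Col14a1 and Col8a1, and the others did not. At Trem2-/- D7 the order was the same, with 1659.6 CPM per kilobase for Col6a2 and 1.66 for Col7a1, and Col12a1 no longer overlapped Col15a1. At D0 every pair of neighbours overlapped except the last, and Col7a1 remained below all others in each group. The lead of Col6a2 over Col6a1 holds for this length only. Divided by all exonic bases of the annotation, the mean at WT D7 was 697 CPM per kilobase for Col6a2 and 1031 for Col6a1. The 9 genes together took a median of 0.359% of the reads at WT D0, 2.18% at WT D7, 0.239% at Trem2-/- D0 and 2.29% at Trem2-/- D7.

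The second comparison asked whether loss of Trem2 was accompanied by other levels of these genes in the injured joint. Among the 8 genes other than Col7a1, Trem2-/- mice had the higher mean on the log2 scale for all 8 at D7, as they had for 6797 of the 13173 genes tested. Several of the collagen genes followed the same mice, so such counts of direction are not counts of separate observations. With quantile normalization they had it for all but Col6a3 (-0.17), and the 95% intervals of the 8 genes included 0. Col7a1 was 4.69 to 10.8 CPM in the 4 WT and 11.6 to 21.7 CPM in the 4 Trem2-/- mice, without overlap, which is 0.92 on the log2 scale. This is the difference on which the gene had been selected, so it is given without a test.

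For the other 8 genes the log2 fold change at D7 ranged from 0.083 for Col15a1 to 0.63 for Col8a1. Of these 8, 0 were called, against 1.18% of all genes called higher and 5.72% called in either direction, and 0 had groups that did not overlap, against 3.55% of all genes in that direction. When the D0 libraries were kept out of the fit, Col8a1 was called at the same fold change. Col8a1 was 164 to 399 CPM in WT and 356 to 463 CPM in Trem2-/- mice (95% interval of the log2 fold change -0.35 to 1.61, limma). Col14a1 was 246 to 571 CPM in WT and 491 to 714 CPM in Trem2-/- mice, and its log2 fold change was 0.52 (95% interval -0.68 to 1.72). For collagen VI the log2 fold changes were 0.25 for Col6a1, 0.18 for Col6a2 and 0.093 for Col6a3, and the intervals reached from -0.77 to 1.26, from -0.82 to 1.18 and from -1.03 to 1.22. Those of Col12a1 (0.21) and Col16a1 (0.22) reached from -0.90 to 1.31 and from -0.76 to 1.196. Over all genes tested the median log2 fold change was 0.0077. Of all genes tested 0% passed adjustment in limma (958 had an unadjusted p under 0.05), and edgeR gave 0 genes and voom 1.

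In uninjured joints the order was the other way. Trem2-/- mice had the lower mean for 9 of 9 genes at D0, as they had for 6433 of the 13173 genes tested. The log2 fold changes ran from -1.42 for Col12a1 to -0.24 for Col7a1 and Col14a1, with a median of -0.75, against 0.0043 over all genes tested. Col12a1 was 174 to 2256 CPM in WT and 181 to 264 CPM in Trem2-/- mice, and Col16a1 was 123 to 889 and 84.9 to 168 CPM, so that the groups overlapped for both. These 2 genes were called lower, 2 of 9 against 1.37% of all genes called lower and 2.15% called in either direction. Col12a1 stood at -1.42 on the log2 scale (standard error 0.52, adjusted p = 0.9996, limma), and Col16a1 at -1.18 (standard error 0.46, adjusted p = 0.9996, limma). Of all genes tested 0% passed adjustment in limma (385 had an unadjusted p under 0.05), and edgeR and voom also gave 0. Without WT D0 replicate 4 the fold changes of Col7a1 (0.045), Col14a1 (0.19) and Col15a1 (0.0077) were above 0, and that of Col14a1 was also above 0 without Trem2-/- D0 replicate 3 (0.33) or WT D0 replicate 1 (0.0011). The count of called collagen genes followed single mice. Leaving out WT D0 replicate 4 gave 0, with Col12a1 at -0.80 and Col16a1 at -0.69, leaving out WT D0 replicate 2 gave 7, and the count was 1 without Trem2-/- D0 replicate 3. With only the D0 groups in the fit it was 0, at unchanged fold changes of -1.42 and -1.18, and it was 6 with edgeR on the recovered reads. The collagen VI genes, at -0.75, -0.75 and -0.85 with all mice, lay at -0.16, -0.16 and -0.18 without WT D0 replicate 4 and at -1.24, -1.225 and -1.37 without replicate 2.

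The third comparison asked whether the change from D0 to D7 differed between genotypes, tested as an interaction. It uses the same 16 libraries as the comparisons above. By its estimate the change was more positive in Trem2-/- mice for all 8 genes other than Col7a1, as it was for 6687 of the 13173 genes tested. The interaction on the log2 scale was called for Col8a1 (1.58, standard error 0.65), Col12a1 (1.62, standard error 0.73) and Col16a1 (1.40, standard error 0.65). These were 3 of the 8 genes other than Col7a1, against 2.77% of all genes called in that direction and 7.79% called in either. Adjusted p from limma for the 3 tested was 0.579, 0.608 and 0.6099 in that order, and 0% of all genes passed adjustment (1075 had an unadjusted p under 0.05, and edgeR and voom gave 0). With voom, the study's own method, Col8a1 alone of the 8 was called, and Col12a1 (1.615) and Col16a1 (1.37) were not, at nearly the same size. Col7a1 had an estimate of 1.16, given without a test because it contains the difference at D7 on which that gene was selected. For the collagen VI genes the interaction was 1.00 for Col6a1, 0.93 for Col6a2 and 0.94 for Col6a3, and it was 0.76 for Col14a1 and 0.36 for Col15a1, none of them called.

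The number of the 8 genes called for the interaction also followed single mice. Leaving out WT D0 replicate 1, WT D0 replicate 4, WT D7 replicate 3 or Trem2-/- D0 replicate 3 gave 0, and leaving out WT D0 replicate 2 gave 6. Col8a1 alone was called on leaving out WT D7 replicate 1 or 2, Trem2-/- D0 replicate 1, 2 or 4, or Trem2-/- D7 replicate 1, 2 or 3. Without WT D0 replicate 4 the interaction was 1.11 for Col8a1, 1.00 for Col12a1 and 0.91 for Col16a1. For Col8a1 the WT mice spanned 37.3 to 275 CPM at D0 and 164 to 399 CPM at D7, and the Trem2-/- mice 32.2 to 70.4 and 356 to 463 CPM. Both ends of the larger rise in Trem2-/- mice therefore lay partly within the range of the WT mice.

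Other genes of collagen biology were counted in the same limma fit, where 19.3% of all genes tested were called higher at D7 in WT and 26.5% in Trem2-/- mice. Of 11 tested collagens of the same structural classes, 8 were called higher at D7 in WT and 9 in Trem2-/- mice. Col9a1 and Col9a3, whose products coat cartilage collagen II fibrils, had log2 fold changes of 4.13 and 3.72 in WT mice, and Col9a1 and Col10a1, the collagen of hypertrophic chondrocytes, had 6.28 and 5.13 in Trem2-/- mice. All 11 fibrillar collagens were called higher in both genotypes, with a median of 2.85 in WT and 4.25 in Trem2-/- mice. The 6 genes of collagens I, III and V had medians of 2.83 and 4.20, above the 2.12 and 3.14 of the 9 genes described here. Collagen IV, the network of basement membranes, had 2 of 6 genes called higher in WT mice (Col4a1 1.53 and Col4a2 1.40), and 3 called higher and 2 called lower in Trem2-/- mice (Col4a3 -0.89 and Col4a6 -0.63).

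Of 11 cell surface receptors of collagens, 9 were called higher at D7 in each genotype, against 19.3% of all genes in WT and 26.5% in Trem2-/- mice. In Trem2-/- mice 1 was called lower, against 27.9%. Cspg4, a proteoglycan that binds collagen VI, had a log2 fold change of 2.48 in WT mice, and Mrc2, an endocytic collagen receptor, had 2.09 in WT and 3.21 in Trem2-/- mice. Itga11, an integrin chain for fibrillar collagen, had 3.38 in Trem2-/- mice. Antxr2, a receptor that takes up collagen VI, was the one called lower in Trem2-/- mice, at -0.90. Among 14 matrix partners, 9 were called higher in each genotype, against the same shares of all genes. Tnc, encoding tenascin C, had log2 fold changes of 2.76 in WT and 4.29 in Trem2-/- mice, Bgn, encoding biglycan, had 2.40 in WT and Lum, encoding lumican, 3.25 in Trem2-/- mice. Between Trem2-/- and WT mice at D7, 0 genes of any of these lists were called, against 5.72% of all genes.

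At D0 several of these related genes were called lower in Trem2-/- than in WT mice, as Col12a1 and Col16a1 were, against 1.37% of all genes called lower. They were 3 of 11 other collagens of the same classes (among them Col9a1 at -2.77 and Col9a2 at -2.13), 4 of 11 fibrillar collagens (among them Col2a1 at -2.06 and Col11a1 at -1.79, both of cartilage, and Col1a1 at -1.27 for collagen I) and 2 of 14 matrix partners, Lum at -1.18 and Fmod, encoding fibromodulin, at -1.09. No collagen IV gene or receptor was called. These counts followed the same WT D0 mice, with 0, 1 and 0 genes called without replicate 4 and 5, 11 and 9 without replicate 2, and 6 of 11 receptors were then called as well. For the interaction, Col8a2, encoding the other collagen VIII chain (1.37), Itga11 (1.66), Itga2 (0.79) and Lum (1.56) were called higher, 1 of 11 other collagens, 2 of 11 receptors and 1 of 14 partners against 2.77% of all genes. Without WT D0 replicate 4 the counts were 0, 2 and 0, and without replicate 2 they were 5, 5 and 7, with 9 of 11 fibrillar collagens, of which 0 were called with all mice. All adjusted p in limma were 0.9996 at D0 and between 0.579 and 0.607 for the interaction.

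The genes most like the collagen genes over the 16 libraries were found by the mean absolute difference of log2 values centred on each gene's own mean, among 10543 other genes whose mean was 5 CPM or more. For the mean of the 3 collagen VI genes the nearest were Col5a2 (0.11), Col5a1 (0.15), Moxd1, Srpx2 and Tnc, where the median gene was 1.85 away. For Col12a1 they were Col1a2 (0.20), Tnc, Col1a1, Fkbp10 and Col5a2, and for Col14a1 they were Fstl1 (0.20), Fbn1, Antxr1, Adamts12 and Bmp1. Col7a1 stood farther from its nearest genes, Nrn1 (0.28), C77080, Lrfn4, Cdh2 and Colgalt1, although its own range was smaller and the median gene was 0.83 away. Within the 9 genes, Col6a1 and Col6a2 were closest (0.045) and Col6a3 and Col7a1 farthest apart (1.16).

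Markers of several cell types moved with the injury, in a fit where 18.2% of all genes were called lower at D7 in WT and 27.9% in Trem2-/- mice. The summed level of the 6 fibroblast markers had a range of 235 to 665 CPM at WT D0 and 779.9 to 1157 CPM at WT D7, and of 272 to 655 and 1024 to 1135 CPM in Trem2-/- mice, and 5 of 6 were called higher and 1 called lower in each genotype. Of the 5 chondrocyte markers 4 were listed, all but Snorc, and all 4 were called higher in both genotypes, with sums of 268 to 8890 CPM at WT D0, 24110 to 61965 at WT D7, 180.03 to 2453 at Trem2-/- D0 and 21923 to 33645 at Trem2-/- D7. Most of this sum was Col2a1, also counted as a fibrillar collagen (mean 42086 CPM at WT D7, against 4113 for Acan). The 5 tendon and ligament markers summed to 393 to 2348 CPM at WT D0, 1919 to 4582 at WT D7, 481 to 758 at Trem2-/- D0 and 2608 to 3918 at Trem2-/- D7. Of the 5, 3 were called higher in WT and 5 in Trem2-/- mice. Most of the tendon sum was Fmod, also counted as a matrix partner, with means of 2609 CPM at WT D7 and 2505 at Trem2-/- D7. Tnmd, the next highest, had means of 117 and 294 CPM there. All 4 osteoblast markers listed (Bglap was not) were called higher in both genotypes, with sums of 106 to 821 CPM at WT D0, 850.3 to 2340.0 at WT D7, 114 to 279 at Trem2-/- D0 and 485 to 1714.5 at Trem2-/- D7. Without WT D0 replicate 2, the numbers called in WT mice were 3 for fibroblast, 1 for tendon and 3 for osteoblast markers. The 6 leukocyte markers were called lower for 6 of 6 in both genotypes, from 2611 to 5185 CPM at WT D0 to 1458 to 3179.8 CPM at WT D7, and from 3259 to 5664 to 1121 to 1459 CPM in Trem2-/- mice. All 7 neutrophil and marrow markers were called lower in both genotypes, from 12965 to 31117 CPM at WT D0 to 4470 to 12584 CPM at WT D7, and from 13773 to 43551 to 4006 to 6832 CPM in Trem2-/- mice. The 6 endothelial markers, with 0 of 6 called in either genotype, summed to between 1319 and 3530 CPM at WT D0 and 1664 and 2575 CPM at WT D7, and to between 1470.0 and 3028 and between 2007 and 2752 CPM in Trem2-/- mice. The part of these shifts in the levels of the collagen genes was not tested.

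**Figure D4:**
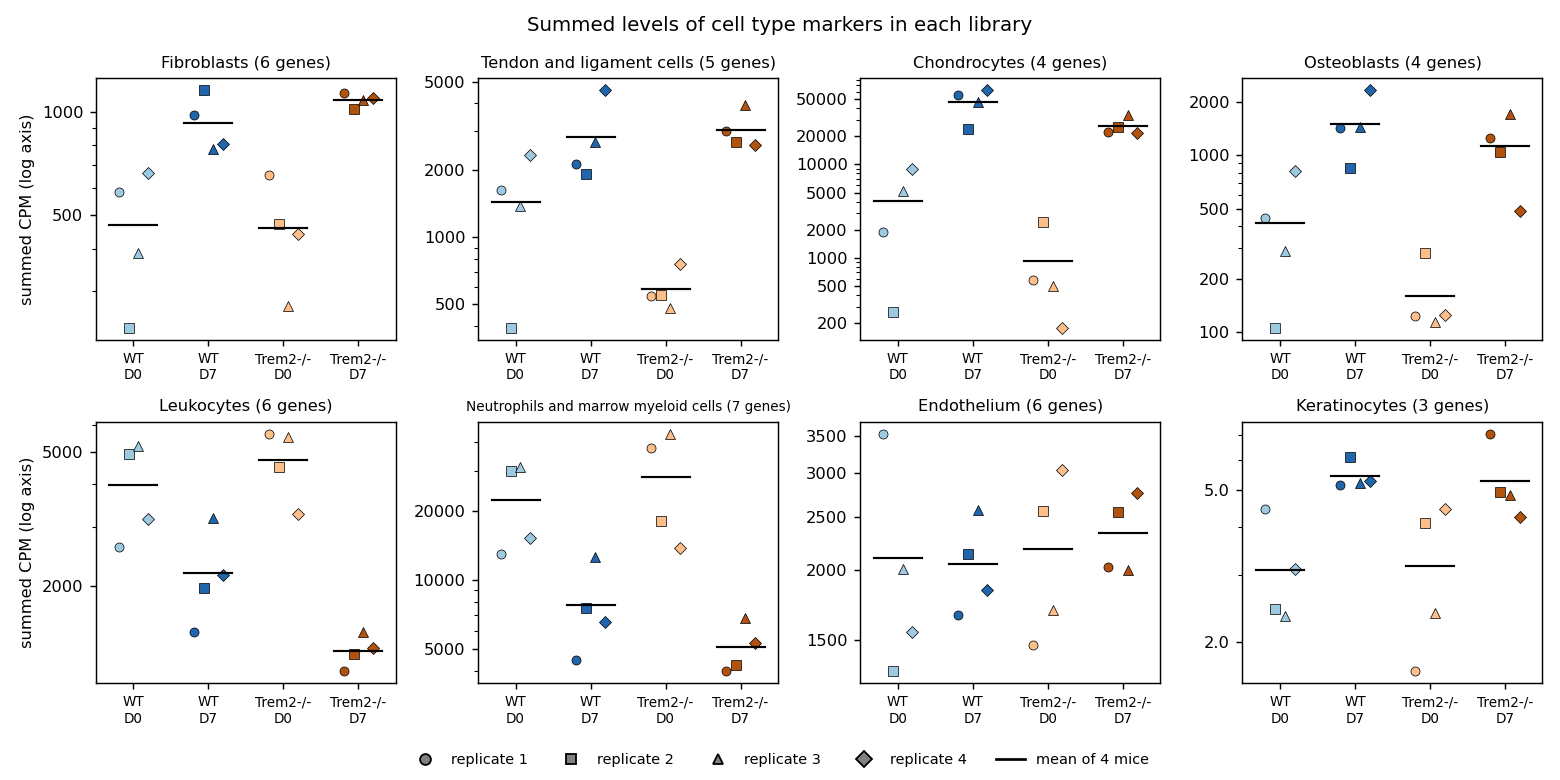
Summed level of marker genes of 8 cell types (CPM, log axes) in the 16 libraries, by group, with a marker shape per replicate and a line at the mean of 4 mice. The tendon sum is mostly Fmod and the chondrocyte sum mostly Col2a1. In both genotypes all fibroblast, chondrocyte and osteoblast sums at D7 lie above those at D0 and all neutrophil sums below, tendon sums lie above in Trem2-/- mice only, and endothelial sums overlap between days.

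Some of the same markers also differed between genotypes. At D7, 3 of 5 tendon and ligament markers were called higher and 5 of 6 leukocyte markers called lower in Trem2-/- than in WT mice, against 1.18% and 4.53% of all genes. At D0, 3 of 5 tendon markers, 2 of 4 chondrocyte markers and 2 of 4 osteoblast markers were called lower in Trem2-/- mice, against 1.37% of all genes and beside the 2 of 9 collagen genes, and 0 of each without WT D0 replicate 4. For the interaction 4 of 5 tendon markers were called higher, against 2.77% and beside the 3 of 8, and 4 without WT D0 replicate 4. In the same interaction 5 of 6 leukocyte markers and 1 of 6 fibroblast markers were called lower, against 5.02% of all genes. Of 6 B cell markers, 6 were called lower in Trem2-/- mice at D7 and 2 at D0, against 4.53% and 1.37%. Keratinocytes of skin are a known source of collagen VII. Of 5 keratinocyte markers, Krt5 and Krt1 were not among the genes listed, Krt14 was 0 to 3.46 CPM, and Krt14, Krt10 and Col17a1 together summed to 2.34 to 4.48 CPM at WT D0, 5.15 to 6.12 at WT D7, 1.68 to 4.48 at Trem2-/- D0 and 4.25 to 7.05 at Trem2-/- D7. The part of these markers in the levels of Col7a1 was not tested.

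Each collagen gene was also set against the fibroblast marker sum of the same library, a ratio chosen after the values were seen and given without a test. The median ratio for Col6a1 was 1.11 at WT D0, 4.94 at WT D7, 0.877 at Trem2-/- D0 and 5.04 at Trem2-/- D7. For Col12a1 it was 1.30, 3.70, 0.538 and 3.87 in the same order of groups. The ranges of the 2 days did not overlap for Col6a1 in either genotype or for Col12a1 in Trem2-/- mice, and overlapped for Col12a1 in WT mice (0.74 to 3.39 at D0 and 2.85 to 5.85 at D7). Col15a1 moved less on this scale, from 0.777 to 1.41 in WT and from 0.722 to 1.29 in Trem2-/- mice, without overlap in either. The median for Col8a1 went from 0.224 to 0.296 in WT and from 0.124 to 0.381 in Trem2-/- mice. Its ranges overlapped in WT mice (0.159 to 0.413 at D0 and 0.210 to 0.363 at D7) and not in Trem2-/- mice. The same held for Col14a1 and Col16a1. For Col7a1 the ratio was 0.00799 at WT D0 and 0.00854 at WT D7, with overlapping ranges, and 0.00797 at Trem2-/- D0 and 0.0134 at Trem2-/- D7, also with overlapping ranges.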

How the data were processed

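RNA-seq libraries of joint cells from 16 mice, 4 for each genotype and day, were grouped by their labels. The authors made the deposited signal values, TMM-normalized CPM, with STAR (mm10, GRCm38), featureCounts and edgeR. Versions, annotation, strand setting and low-count filter are not given in the sources used here. One gene (Fcgr1) was listed 2 times and counted once. What 1 read is worth was worked out per library, and 100% of values were whole multiples of it (tolerance 0.02). Replicates differed by more than sampling noise (chi-square divided by its degrees of freedom at least 10.5), and 3 reads set a floor that covers counting error only.

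Log2(CPM + 1) values of 13173 genes were fitted in R 4.3.3 with limma 3.58.1 (a linear model and moderated variances with a trend), with the 4 groups as one factor. Fold changes on this scale understate those of low genes. Calls used the thresholds of the study's methods, p under 0.05 and fold change over 1.25, and Benjamini-Hochberg adjustment ran over all genes tested. The p-values measure the spread between these mice. For ratios, all 70 splits of 8 mice were enumerated in a two-sided exact permutation test. Dixon's limit was used to find single mice far from their group.

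The 9 genes and all lists were chosen with earlier results of these data known. All 9 are named. From each list of related genes up to 2 per direction are named per contrast, those called with the largest change, and from the likeness measure the nearest 5 genes. Of these lists, Col21a1 was not listed and Col19a1 was listed but not tested. Positions are from GENCODE M21. The fit was tested on simulated counts, where 94.9% of 98 genes changed by 1 and 100% of 102 genes changed by 2 on the log2 scale were called among 13121 genes for Trem2-/- vs WT at D7. The changed genes were drawn at random, with the same dispersion of a gene in all groups. The median SD of the 9 collagen genes exceeded that of all genes tested in every group, so these rates need not hold for them. Alternatives were pseudocounts of 0.1 and 5, no filter, a mean of at least 5 CPM, quantile and median-of-ratios scaling, only the groups compared, no variance trend, replicate number as block, each mouse left out, voom and edgeR 4.0.16 on whole reads, a threshold of 1.5-fold and adjusted p. Counts over the related and marker lists without WT D0 replicate 2 or 4 were added after the data were seen.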

Additional observations from a re-analysis of the deposited data

Results flagged for a closer look

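In 48 sets of 4 mice, the gap between the most distant mouse and its neighbour was taken as a fraction of the whole range, in brackets below. Dixon's 95% limit was passed 5 times, and about 2.4 would be passed by chance. The sets share mice, and the ratios share genes with the levels, so 5 against 2.4 cannot be read as an excess. At Trem2-/- D0, replicate 3 was low for Col6a2 (0.845; 282 against 473 to 508 CPM) and for Col16a1 (0.945; 84.9 against 163 to 168 CPM), and high for the ratio of Col12a1 to Col14a1 (0.848; 7.88 against 1.61 to 2.56). At WT D7, replicate 3 was low for Col6a3 (0.955; 4303 against 6372 to 6468 CPM), and replicate 2 was high for the ratio of Col6a2 to Col6a1 (0.939; 1.32 against 1.27 to 1.28).

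The effect of injury differed between the genotypes at an unadjusted p under 0.05 in limma for Col8a1 (1.58 on the log2 scale), Col12a1 (1.62) and Col16a1 (1.40), with the larger rise in Trem2-/- mice. None of them passed adjustment, and with voom Col8a1 alone was called. Without WT D0 replicate 4 the 3 values were 1.11, 1.00 and 0.91, and none was called. That replicate was the highest WT D0 mouse for 9 of the 9 genes.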

How the results depend on the processing

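The alternatives that change the threshold are left out of the next counts. The log2 fold changes of D7 against D0 kept their direction and call in 171 of 171 combinations of gene and alternative in Trem2-/- mice and in 168 of 171 in WT mice, where Col7a1 lost its call 3 times. Col7a1 in WT mice also missed an adjusted p under 0.05. Counts between genotypes and for the interaction include Col7a1 here. That gene was selected on the difference at D7, so its calls at D7 and for the interaction are not tests of it. Leaving out 1 mouse each gave 8 to 9 genes called in WT mice and 9 in Trem2-/- mice, 0 to 1 for Trem2-/- vs WT at D7, 0 to 7 at D0 and 0 to 7 for the interaction. Among the 8 genes other than Col7a1, 0 were called at D7 each time, and 0 to 6 for the interaction. With only the groups compared, 2 genes were called at D7 (Col7a1, with Col8a1 added) and 0 at D0, at unchanged fold changes. At D0 edgeR called 6, voom called 2 for the interaction (Col12a1 at 1.615 and Col16a1 at 1.37 lost), and an adjusted p under 0.05 left 0 for each of these 3 comparisons.

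Direction reversed for Col6a3 in Trem2-/- vs WT at D7 with quantile normalization (-0.17) and without WT D7 replicate 3 (-0.052). At D0 it reversed for Col14a1 without WT D0 replicate 1 (0.0011), WT D0 replicate 4 (0.19) or Trem2-/- D0 replicate 3 (0.33), and without WT D0 replicate 4 also for Col7a1 (0.045) and Col15a1 (0.0077). The log2 ratio of Col6a2 to Col6a1 ranged from 0.043 to 0.077 for D7 against D0 in WT mice and from -0.075 to -0.057 for Trem2-/- vs WT at D7 when 1 mouse was left out, and the exact permutation p then cannot fall below 0.0571. In Trem2-/- mice it ranged from -0.055 to 0.023 and turned positive without Trem2-/- D0 replicate 1 (0.023) or 3 (0.0073). With 1 mouse left out, the fold change of Col6a3 at D7 ranged from -0.052 to 0.14, and those at D0 ranged from -0.46 to 0.045 for Col7a1, from -0.63 to 0.33 for Col14a1 and from -0.62 to 0.0077 for Col15a1. The cause was not tested.

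The replicate numbers recur across groups but do not pair the mice. Of 24 same-numbered pairs, 11 had deviations correlated over 0.1 and 7 correlated best with their own number. With the replicate number as a block, 9 genes were called in each genotype for D7 against D0. Of the 8 genes other than Col7a1, 0 were called at D7 and 3 at D0 (Col8a1, -0.95, added) between genotypes, and 3 for the interaction. Quantile normalization put 33.3% of all D7 genotype calls on the higher side, against 20.7%. Depth limits Col7a1 most, with as few as 20 reads in a library.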
